A study of Homo sapiens with 42 samples.

Results

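Chromatin sites of MCF10A cells were selected that had an ATAC-seq peak at the start of the experiment and under EGF, and seldom under PBS. Overlapping peaks of 42 libraries on chromosomes 1 to 22 and X were merged into 167085 sites. A site was a member if it was detected in all 4 CTRL libraries, in at least 7 of the 8 EGF libraries and in at most 1 of the 6 PBS libraries. The rule gave 4920 members. They were 12.2% of the 40378 sites that met the CTRL and EGF parts of the rule, and the remaining 35458 of these are called the other held sites here. A site counts as detected in a library when it overlaps a peak that the authors called there. The peak calls of the 18 CTRL, EGF and PBS libraries chose the members, so detection in those libraries is a description and was given no test. The 24 HGF, OSM, IFNG and TGFB libraries took no part in the choice.

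The MCF10A line is an established culture of human breast epithelium that does not form tumours, and each library was made from 50000 cells. All cells, the PBS and CTRL cells included, were attached to collagen-1 and kept for 18 h in medium with 5% horse serum, hydrocortisone and cholera toxin but no EGF or insulin. CTRL cells were taken then, at 0 h (n = 4). The others received PBS (the vehicle, n = 3 at each time), 10 ng/ml EGF (n = 4 at each time), 40 ng/ml HGF, 10 ng/ml OSM, 20 ng/ml IFNG together with EGF, or 10 ng/ml TGFB together with EGF (n = 3 each at each time), for 24 h or 48 h. The name of a group is used below for its ligand, so that IFNG and TGFB always stand for the ligand with EGF, and a library is named by ligand, time and replicate letter. The study's methods speak of biological replicates, but the labels tie no library to a culture, so p-values measure only the spread between these libraries.

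The data do not show that these sites need a growth factor. CTRL cells had themselves been without EGF for 18 h when all 4920 members were detected in them. In addition, 3933 members (79.9%) were detected in the library PBS 24 h A, the PBS library with the most peaks, and 987 were not. The sites are therefore described by the rule that chose them.

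ATAC-seq marks DNA that a transposase can reach, which is mostly promoters, enhancers and insulators. EGF binds the receptor tyrosine kinase EGFR, and HGF binds the related kinase MET. Both signal through RAS and the kinase ERK, which raises the amount and activity of AP-1, a family of FOS and JUN dimers that bind at many enhancers of epithelial cells. TEAD proteins, which bind DNA for the coactivators YAP and TAZ, and RUNX proteins often bind the same enhancers as AP-1. OSM is a cytokine that signals through STAT3, IFNG is a cytokine of the antiviral response, and TGFB signals through SMAD proteins.

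To show what kind of DNA the members hold, 5 of them are printed as the summit with 100 bp on each side, from the plus strand of build hg38. FGF5, HMGA2 and S1PR1 were among the 12 members with the highest CTRL fold enrichment that were detected in all 8 EGF libraries and in 0 PBS libraries. The sites near AREG and DUSP6 are examples from the EGF pathway and were not chosen for their motifs. Each site is named by the nearest start of a protein-coding gene, which need not be the gene it acts on. Capitals mark matches, on either strand, to the AP-1 motif TGANTCA, the TEAD motif GGAATG and the RUNX motif TGTGGT.
FGF5 site, chr4:80238047-80238247: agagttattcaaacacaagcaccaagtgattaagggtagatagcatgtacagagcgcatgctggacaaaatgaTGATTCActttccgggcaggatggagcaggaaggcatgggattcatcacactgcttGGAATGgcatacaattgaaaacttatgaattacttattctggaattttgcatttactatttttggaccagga
HMGA2 site, chr12:65928276-65928476: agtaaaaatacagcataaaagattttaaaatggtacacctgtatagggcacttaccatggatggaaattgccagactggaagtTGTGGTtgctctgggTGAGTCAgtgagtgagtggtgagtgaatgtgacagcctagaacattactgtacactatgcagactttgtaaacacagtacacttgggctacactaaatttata
S1PR1 site, chr1:101200608-101200808: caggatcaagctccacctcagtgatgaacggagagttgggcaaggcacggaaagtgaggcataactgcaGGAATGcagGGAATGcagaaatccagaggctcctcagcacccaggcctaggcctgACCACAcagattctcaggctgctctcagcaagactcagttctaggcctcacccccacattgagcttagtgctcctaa
AREG site, chr4:74410400-74410600: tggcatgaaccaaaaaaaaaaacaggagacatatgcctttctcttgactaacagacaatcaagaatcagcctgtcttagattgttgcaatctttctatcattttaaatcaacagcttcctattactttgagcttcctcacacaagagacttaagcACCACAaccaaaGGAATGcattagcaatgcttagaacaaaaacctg
DUSP6 site, chr12:89370828-89371028: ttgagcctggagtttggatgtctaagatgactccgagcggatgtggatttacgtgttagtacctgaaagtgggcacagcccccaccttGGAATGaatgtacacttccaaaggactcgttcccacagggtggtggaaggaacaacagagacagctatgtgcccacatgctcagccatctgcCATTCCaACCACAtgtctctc

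The FGF5 site held an AP-1 match centred 24 bp before its summit and a TEAD match 32 bp after it. In the HMGA2 site, an AP-1 match was centred 1 bp after the summit and a RUNX match lay 14 bp before it. The S1PR1 site held 2 TEAD matches before the summit and 1 RUNX match after it. The AREG site held TEAD and RUNX matches 70 and 58 bp after its summit, and the DUSP6 site held 2 TEAD matches and 1 RUNX match. A match is a description of the letters and does not show that a protein was bound.

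The libraries differed widely in the number of peaks, from 4217 to 113805, and 8 had fewer than 30000. The 4 CTRL libraries had 109226 to 113805 peaks, more than nearly all others. No read counts are in the files, so how deeply a library was sequenced is unknown, and counting intervals were not possible. The sample annotation of the study marks 12 of the 42 libraries as failing its check of the share of reads in peaks, and these were left out of its accessibility matrix. They were PBS 48 h C, EGF 24 h B, HGF 24 h C, OSM 24 h C, OSM 48 h B and C, IFNG 24 h B, IFNG 48 h C, TGFB 24 h B and C, and TGFB 48 h A and B. They had 4217 to 44099 peaks, and all 8 libraries with fewer than 30000 were among them. The rule and the values below use all 42, and the main values are also given without the 12. A library with fewer peaks detects fewer sites of every kind, and this bears on every detection share below. In bulk cells, fewer cells with an open site and a site less open in each cell cannot be told apart. Epithelial markers had a promoter peak in part of the 42 libraries (ITGB4 in 37, KRT5 in 31, CDH1 in 28, EPCAM in 26, KRT14 in 10, TP63 in 2). Of the fibroblast markers, COL1A1 had one in 35, PDGFRA in 23, DCN in 9 and COL1A2 in 7. The immune and endothelial markers that are named here (PTPRC, CD3E, PECAM1, CDH5 and VWF) had a promoter peak in 0 libraries.

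In the libraries that chose them, 2008 members (40.8%) were detected in 8 of 8 EGF libraries and 2912 in 7 of 8. In 2017 of the latter the missing library was EGF 24 h B, which had 44099 peaks, the fewest of the EGF libraries, and failed the quality check. With the 12 failing libraries left out, and 1 EGF library still allowed to miss and 1 PBS library to detect a site, the rule gave 7558 sites. All 4920 members had to be among them, since leaving out libraries under the same allowances can only add sites. Of the members, 859 were detected in 0 PBS libraries and 4061 in 1. That PBS library was nearly always PBS 24 h A, with 104875 peaks. The other 5 PBS libraries, with 16265 to 51628 peaks, detected 42, 10, 37, 39 and 0 members. The strictest form of the rule, with 8 of 8 EGF and 0 of 6 PBS libraries, was met by 337 members.

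The threshold cut through a graded distribution. Of all 40378 sites in 4 CTRL and at least 7 EGF libraries, 859, 4061, 3669, 4034, 5507, 10873 and 11375 were detected in 0, 1, 2, 3, 4, 5 and 6 PBS libraries. Among the strongest sites just inside the limit, with 1 PBS library, were those near TAPT1, WIPF3 and CNIH3, with median CTRL fold enrichments of 19.6, 19.2 and 19.0. Just outside it, with 2 PBS libraries, were the sites near HMHB1 (21), TARBP1 (20.6) and PLK2 (20.4). On the EGF side, the sites near PPIAL4A (18.1), SLC4A4 (15.8) and COX18 (15.7) had 7 EGF libraries, and those near KCNK2 (17.3), HAS2 (15.6) and EPM2A (14.5) had 6. These sites were picked on both sides for the highest CTRL values, so their like values carry no information about the limits.

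The question for the 24 libraries outside the rule was whether members were detected again when cells received any of the 4 remaining ligands. HGF libraries detected 65.6% ± 37.2 of the members (SD, n = 6 libraries), OSM libraries 49% ± 33.5, IFNG libraries 50.1% ± 34.3 and TGFB libraries 31.2% ± 39.5. The other held sites were detected at 90.1% ± 14.8, 73.3% ± 28, 70.6% ± 34.4 and 42% ± 40.3 in the same libraries. The ranges of the ligands overlapped almost completely, and in TGFB the SD was above the mean. The ligands lay closer together in the libraries that passed the quality check. In these 14, the mean share of members was 74.5% in HGF (14.5% to 94.4%, n = 5), 74.9% in OSM (57.3% to 95.8%, n = 3), 69.7% in IFNG (42.8% to 85.2%, n = 4) and 80.0% in TGFB (65.8% and 94.3%). The other held sites were detected at 93.4%, 92.7%, 90.1% and 90.9% in these libraries.

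Libraries with more peaks mostly detected more members. HGF 24 h A, B and C detected 94.4%, 91.7% and 21.6% of the members, and had 102330, 87272 and 39189 peaks. HGF 48 h A, B and C detected 82.0%, 89.7% and 14.5%, with 87401, 92751 and 34001 peaks. Thus 4 HGF libraries detected most of the members and both C libraries few of them. OSM 24 h A, B and C detected 95.8%, 57.3% and 43% with 109778, 51317 and 42788 peaks. The values of OSM 48 h A, B and C were 71.5%, 2.56% and 23.5%, with 77169, 11798 and 35947 peaks. In OSM the order of the shares was that of the peak numbers. IFNG 24 h A, B and C detected 79.2%, 21.6% and 42.8%, with 77174, 28109 and 44456 peaks. IFNG 48 h A, B and C detected 71.6%, 85.2% and 0.325%, with 81891, 99869 and 6742 peaks. Exceptions to the order were IFNG 48 h A, below IFNG 24 h A with fewer peaks, and HGF 48 h A and B, below HGF 24 h B with fewer peaks. For TGFB the shares were 94.3%, 4.17% and 1.71% at 24 h, with 108125, 7540 and 5760 peaks. At 48 h they were 19.9%, 1.46% and 65.8%, with 22651, 4217 and 56140 peaks. The PBS libraries, of which the rule allowed at most 1 to detect a member, stand apart from this order. PBS 48 h A and B had 51628 and 51525 peaks and detected 0.752% and 0.793%, while OSM 24 h B with 51317 peaks detected 57.3%. The libraries HGF 24 h C, OSM 24 h C and IFNG 24 h C detected near-equal shares of the other held sites (73.6%, 73.5% and 73.8%). Their shares of the members were 21.6%, 43% and 42.8%, so that HGF 24 h C was the low one of the 3.

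**Figure D1:**
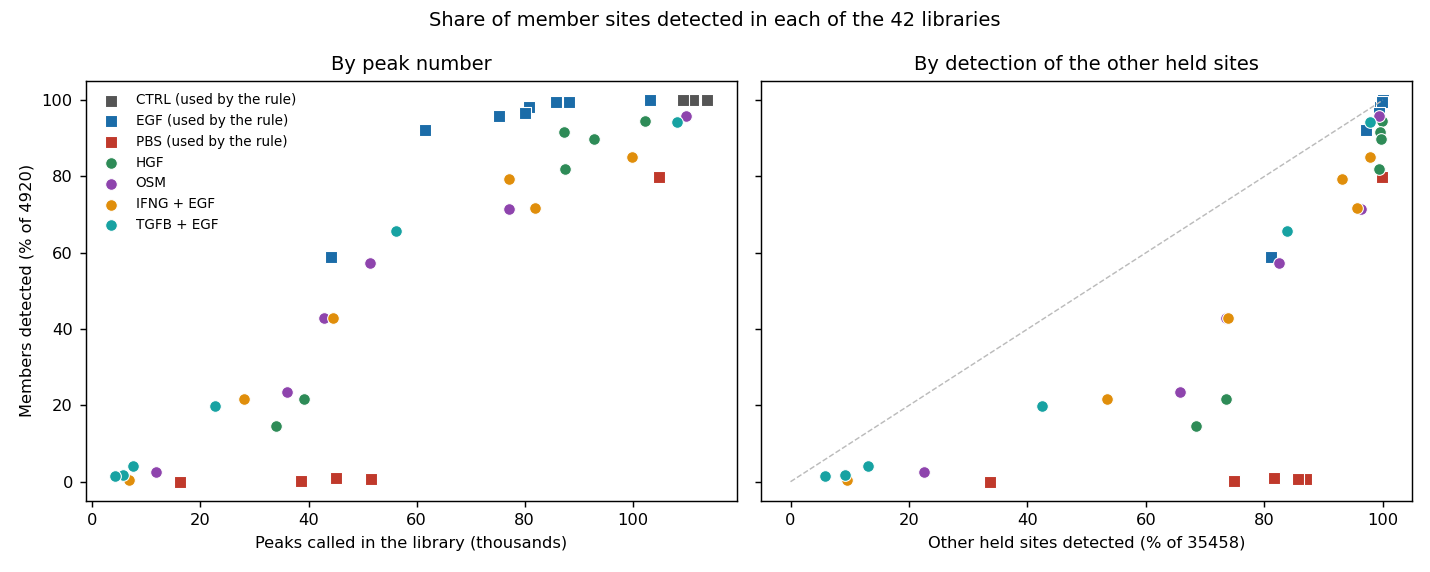
Share of the 4920 members (percent, vertical axis) detected in each of the 42 libraries, against the number of peaks of the library (left) and against the share of the other held sites that it detects (right), with 1 point per library, squares for groups that the rule used and a dashed line of equality. The 6 HGF libraries reach from 14.5% to 94.4% and the 6 TGFB libraries from 1.46% to 94.3%. Of the 6 PBS libraries 5 lie below 1%, and the rule allowed each member at most 1 PBS library.

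Each member was detected in a median of 12 of the 24 libraries outside the rule, with quartiles of 9 and 14 and a range of 1 to 23. In all, 2558 members (52.0%) were detected in at least 12 of them. The site near ZRANB2, which encodes a splicing factor, was detected in 23, all but 1 IFNG library. No member was detected in all 24 or in none. All 6 libraries of a ligand detected 258 members for HGF, 92 for OSM, 6 for IFNG and 13 for TGFB. In at least 3 of 6 libraries, 4468 members (90.8%) were detected under HGF, 2932 (59.6%) under OSM, 3287 (66.8%) under IFNG and 1012 (20.6%) under TGFB. The corresponding shares of the other held sites were 99.9%, 88.4%, 92.1% and 43.7%. Under every ligand the members were thus detected in fewer libraries than the other held sites, but members also had a lower CTRL fold enrichment (median 9.36 against 11.1).

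Members were detected less often also among distal sites of like strength, by a smaller margin than over all sites. For members with a CTRL fold enrichment within the members' own quartiles, 7.41 to 11.4, and over 1000 bp from a gene start (2376 sites), the mean detection was 65% in HGF, 47.3% in OSM, 48.6% in IFNG and 31% in TGFB libraries. The 9526 other held sites within the same bounds were detected at 85.7%, 65.4%, 63.9% and 36.4%. The members were also split by their detection in PBS 24 h A. The 3933 detected there were found at 68.4%, 49.5%, 50.7% and 30.8%, and the 987 others at 54.8%, 46.9%, 47.8% and 32.9%. The 337 members under the strictest rule were found at 60%, 52.8%, 54.2% and 36.9%. Between members with and without a peak in PBS 24 h A, the HGF value differed most. No test was made of these shares, because they are scores over sites that were chosen with results in view.

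A comparison at equal peak number was added after the data had been seen. Each library was reduced to its 30000 strongest peaks by p-value, and the 8 libraries with fewer were left out. Of the members, 30.7% ± 4.04 were among the 30000 strongest peaks of CTRL libraries (SD, n = 4) and 29.7% ± 5.11 of EGF libraries (n = 8). The PBS libraries gave 5.57% in PBS 24 h A and 0.0813% to 0.183% in 4 others. Among the groups outside the rule, the share was 12.3% ± 2.53 in HGF (n = 6), 24.8% ± 6.19 in OSM (n = 5) and 21.5% ± 6.27 in IFNG (n = 4). It was 38.6% and 37.2% in the 2 TGFB libraries with enough peaks. The HGF values, 9.80% to 16.3%, lay below all OSM values, 17.9% to 31.5%, and below both TGFB values, also without the libraries that failed the quality check (12.4% in 5 HGF and 26.4% in 3 OSM libraries), while the lowest IFNG library, at 15.8%, lay within them. For the other held sites the HGF share was the higher one, with 66.7% ± 2.59 in HGF, 61.2% ± 2.21 in OSM, 61.5% ± 2.63 in IFNG, and 57.1% and 58.8% in TGFB. At equal peak number the members thus ranked low in HGF libraries, and in TGFB libraries near the highest EGF library, at 37.9%. Over all peaks and all 6 libraries of each ligand, their detection was highest in HGF, at 65.6%. The 2 TGFB libraries kept here detected 94.3% and 65.8% of the members over all peaks, a mean of 80.0%. The 2 rankings therefore rest on different libraries.

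**Figure D2:**
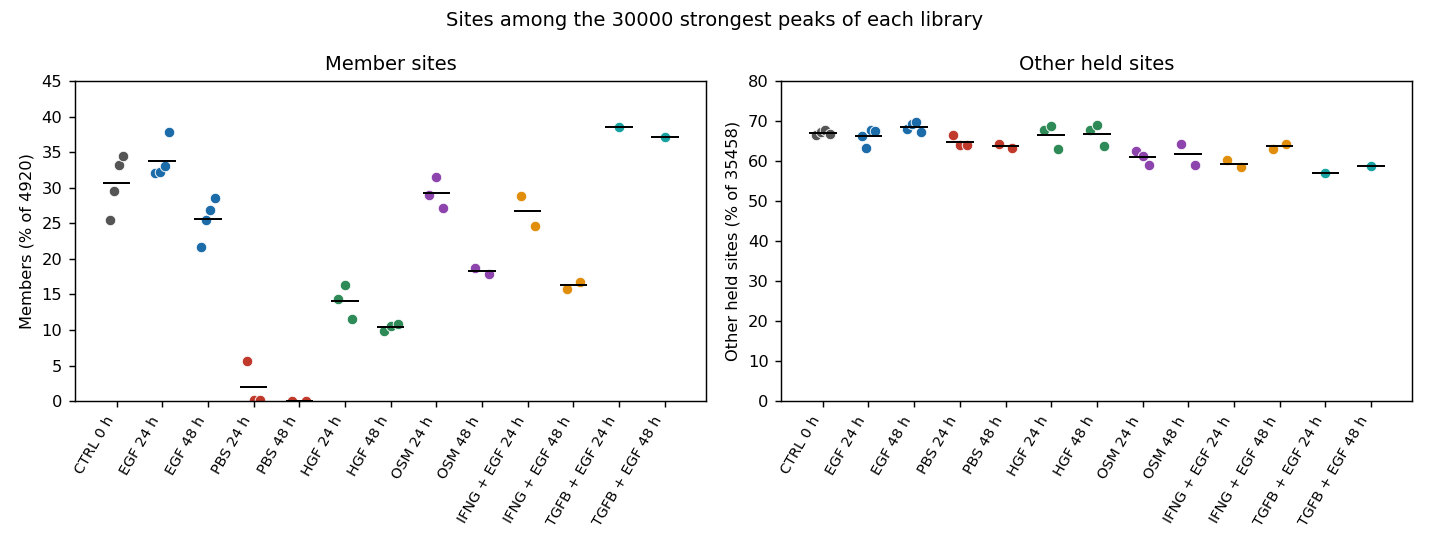
Percent of the members and of the other held sites (vertical axes) that lie among the 30000 strongest peaks of each library, by group and time, with 1 point per library, 34 libraries in all and a bar at each mean. HGF libraries lie between 9.80% and 16.3% for the members, below the 5 OSM libraries, and all groups lie between 57.1% and 69.8% for the other held sites.

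These shares of the members were lower at 48 h than at 24 h in 4 ligands. In OSM libraries the share was 29.2% ± 2.22 at 24 h (n = 3) and 18.7% and 17.9% at 48 h. IFNG libraries gave 28.9% and 24.6% at 24 h and 15.8% and 16.8% at 48 h. The HGF shares were 14.1% ± 2.34 at 24 h and 10.4% ± 0.550 at 48 h (n = 3 each). EGF libraries, which helped to choose the members, gave 33.8% ± 2.81 at 24 h and 25.6% ± 2.94 at 48 h (n = 4 each). In each of these 4 ligands the values at 24 h and at 48 h did not overlap. The IFNG libraries left out were IFNG 24 h B and IFNG 48 h C, and OSM 48 h B was also left out.

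The rule itself was then applied with another ligand in the place of PBS. HGF gave 137 sites, of which 132 were members, OSM gave 1704 (852 members), IFNG gave 1611 (726 members) and TGFB gave 7221 (1677 members). The number moved with the number of peaks. The median library had 87336 peaks for HGF, 47052 for OSM, 60815 for IFNG, 15096 for TGFB and 48276 for PBS. PBS and OSM had similar medians and gave 4920 and 1704 sites. Members made up 96.4% of the HGF set and 23.2% of the TGFB set. When the rule was applied to the 30000 strongest peaks of each library, it gave 1062 sites (6.90% of 15400 held sites), and 275 of these (25.9%) overlapped a member. Both choices of peaks therefore gave largely different sites.

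Site by site, detection was compared between ligands with limma over the 24 libraries outside the rule. Detection (1 or 0) was first adjusted by subtracting the share of sites of the same class that the library detected, where a class is the number of libraries that detect a site. Of all 108341 sites tested, 4919 were members, and 1 member was left out because fewer than 2 of the 24 libraries detected it. A site was called at a Benjamini-Hochberg adjusted p below 0.01 over all sites and a difference in adjusted detection of at least 0.5. Because a share is subtracted in each library, this difference is not a difference in raw detection and can exceed 1. For IFNG minus HGF, 10 members (0.203%) were higher, where 1.17% of all sites were called higher. In the other direction, 2 members (0.0407%) were lower, where 0.0775% of all sites were called lower. The shares of members were below those of all sites. Leaving out single libraries moved the count of 12 to between 1 and 81, so that only the few sites named below are described. It was 81 without IFNG 48 h C, 61 without HGF 48 h C and 35 without HGF 24 h C, the libraries with the fewest peaks of their ligand or time. In 14 of the 24 fits that left out 1 library, 5 or fewer members were called.

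For OSM minus HGF limma called 0 members, with 0.00277% of all sites called higher and 0% lower. A count of 0 does not show that members did not differ. In simulated data limma called only 38.5% of the sites with the largest possible change in detection. At an unadjusted p below 0.05, 549 members (11.2%) were higher under OSM and 265 (5.39%) lower, beside 6.80% and 7.01% of all sites. Without HGF 24 h C the adjusted count became 8. TGFB minus HGF also had 0 members called, with 0% of all sites called in either direction. At an unadjusted p below 0.05, 434 members (8.82%) were higher and 109 (2.22%) lower, beside 5.83% and 6.29% of all sites. For 48 h minus 24 h, 0 members and 0% of all sites were called in either direction, and 93 members (1.89%) were higher and 260 (5.29%) lower at an unadjusted p below 0.05, beside 3.97% and 3.16% of all sites. The median adjusted difference of the members was 0.0382 for OSM, 0.0385 for IFNG and 0.0949 for TGFB against HGF, and -0.0400 for 48 h against 24 h. The medians over all sites lay between -0.00586 and 0.00624.

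These directions depend on the adjustment for peak number. With raw detection, 22 members were higher and 308 lower under OSM than under HGF at an unadjusted p below 0.05, 19 higher and 335 lower under IFNG, and 7 higher and 676 lower under TGFB. The median HGF library had more peaks than the median library of OSM, IFNG or TGFB. The directions also depend on the libraries: in a fit of the 14 that passed the quality check, added after the data had been seen, 169 members were higher and 455 lower under OSM at an unadjusted p below 0.05, 269 higher and 268 lower under IFNG, and 302 higher and 162 lower under TGFB. That fit called 0 members for OSM and for TGFB, and 6 higher and 0 lower under IFNG, at the adjusted threshold. By the interaction terms of the limma fit over the 24 libraries, 0 members were called for a time difference in HGF unlike that in OSM, IFNG or TGFB. At an unadjusted p below 0.05 there were 279, 364 and 181 members. No share of all sites is set beside the counts of this paragraph, so they are not read as particular to the members.

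The site in an intron of SSPN, which encodes the dystrophin-associated membrane protein sarcospan, separated HGF from the other ligands. It lies at chr12:26134840-26135561, 272 bp from a gene start. Its fold enrichment was 11.4, 8.57, 11.3 and 10.0 in CTRL libraries A to D. HGF libraries gave 9.41, 7.20 and 5.11 at 24 h and 8.29, 12.3 and 5.70 at 48 h. It was detected in all 6 HGF and all 8 EGF libraries and in none of the 18 OSM, IFNG and TGFB libraries, and PBS 24 h A gave 4.04. The difference in adjusted detection for IFNG minus HGF was -0.81 (SE 0.16, limma adjusted p = 0.0064). It was called in 14 of the 24 fits that left out 1 library, with limma adjusted p from 0.0022 to 0.044, and was not called in the fit of the libraries that passed the quality check. EGF was present in the IFNG and TGFB media, in which the site was not detected, and in the EGF libraries, in which it was.

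A site in an intron of NMNAT2, an enzyme that makes NAD in axons, went the other way. It lies at chr1:183272236-183272775, 32351 bp from a gene start. The CTRL libraries gave low values of 3.36, 3.82, 3.95 and 4.79. IFNG libraries A to C gave 8.40, 6.03 and 5.41 at 24 h, and IFNG 48 h A and B gave 7.14 and 8.81, all above the CTRL values. It was not detected in IFNG 48 h C, in HGF (0 of 6) or in PBS. OSM detected it in 1 library and TGFB in 2. The difference for IFNG minus HGF was 1.08 (SE 0.17, limma adjusted p = 0.00074), and it was called in all 24 fits that left out 1 library.

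Among the others called higher under IFNG were sites near SLC39A11, a zinc transporter, SORCS1, a sorting receptor, and SH3TC2, an endosomal protein of Schwann cells. The SLC39A11 site (intron, chr17:72812876-72813148) had a difference of 0.88 (SE 0.17, limma adjusted p = 0.0064). It was detected in 5 IFNG libraries and 1 HGF library. The SORCS1 site (intergenic, chr10:106500155-106501587) was detected in 4 IFNG and 0 HGF libraries, and the SH3TC2 site (exon, chr5:148984434-148984840) in 5 and 1. Each of these 3 was called in 11 to 13 of the 24 fits. An intergenic site near AZIN1, which encodes an inhibitor of antizyme, was lower, with detection in 5 HGF libraries and in 0 OSM, IFNG and TGFB libraries (difference -0.71, SE 0.14, limma adjusted p = 0.0066).

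Members lay far from gene starts. Of the 4920, 219 (4.45%) were within 1000 bp of a start, beside 29.1% of the other held sites and 11.3% of all sites in at least 2 libraries. The median distance was 41134 bp for members, 17966 bp for the other held sites and 35764 bp for all sites. Introns held 47.8% of the members, exons 3.41% and intergenic DNA 48.8%. Among the other held sites these shares were 41.5%, 11% and 47.5%. Members were narrower (median merged width 658 bp against 821 bp) and poorer in G and C near the summit (46.8% against 52.7%). A merged site spans the peaks of all libraries that detect it, and the rule limits these in members, so the width is not independent of the choice. The 337 members under the strictest rule had 4 sites (1.19%) within 1000 bp of a start.

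The choice of sites with few PBS peaks bears on position, since 38.3% of the 22248 held sites in at least 5 PBS libraries were within 1000 bp of a start. Among the members, promoter-proximal sites were detected about as often as the rest. The 219 were detected at 67.0% in HGF, 43.8% in OSM, 48.7% in IFNG and 24.5% in TGFB libraries, and the 4701 distal members at 65.6%, 49.2%, 50.2% and 31.5%. Among the strongest promoter-proximal members was one in an intron of CLDN2, a pore-forming claudin of tight junctions, at chrX:106917728-106918693. It was detected in 5 HGF, 4 OSM, 3 IFNG and 4 TGFB libraries. The one in CNTN1, a neural adhesion protein, at chr12:40906955-40907558, was detected in all 6 HGF libraries with fold enrichments of 4.23 to 10.4. By contrast, the one in ADGRV1, an adhesion receptor, was detected in 4 HGF libraries and 0 IFNG libraries.

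**Figure D3:**
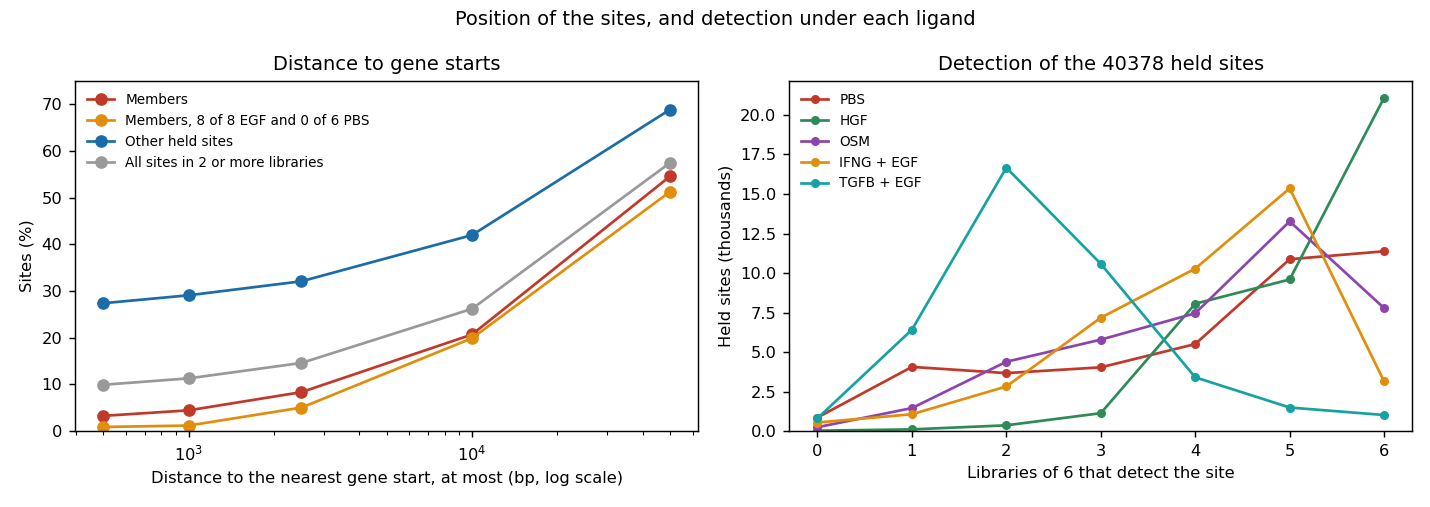
Left, percent of sites within 5 distances of a gene start (500 to 50000 bp) for members, the strictest members, other held sites and all sites in at least 2 libraries. Right, number of held sites (in units of 1000) by how many of 6 libraries detect them in PBS and under each ligand. The member curve starts at 3.27% and 4.45% within 500 and 1000 bp and reaches 54.6% within 50000 bp, below the curve of the other held sites, which reaches 68.9%.

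Members were spread over the genome. Their share of the held sites ranged from 5.86% on chromosome 19 to 14.3% on chromosome X. The median distance from a member to the next was 126068 bp, and 298 members (6.06%) had another within 10000 bp. They had 3499 nearest genes, of which 2572 were nearest to 1 member. The genes with the most members were chosen here by that count. SOX9, a transcription factor of epithelial progenitors, was the nearest gene of 10 members between chr17:71423973 and chr17:72431179, among 35 held sites. NOS1AP, an adaptor of neuronal nitric oxide synthase, had 8 of 11 held sites, and TRIB2, a pseudokinase, had 8 of 23. JAG1, a Notch ligand, had 7 of 26, and PAPPA, a protease that cleaves IGF-binding proteins, had 7 of 19. MYC, a transcription factor of cell growth, had 7 of 34, and SARAF, a regulator of calcium entry, had 7 of 19. A gene in a wide gap between genes is the nearest one for more sites, whatever their role.

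AP-1 matches were the most frequent of 15 motifs searched. Within 100 bp of the summit 53.4% of members held TGANTCA, beside 37.2% of the other held sites and 37.9% of all sites. TEAD matches (GGAATG) were in 23%, 14.4% and 16%, and RUNX matches (TGTGGT) in 24.1%, 14.2% and 16.5%. Promoter motifs went the other way. The SP/KLF motif GGGCGG was in 7.48%, 26.5% and 12.2%, the ETS motif CCGGAA in 3.96%, 9.59% and 4.55%, and the NRF1 motif GCGCATGC in 0.203%, 1.52% and 0.611%. The CTCF core AGGGGGC was in 3.29%, 6.35% and 4.44%. FOXO (GTAAACA) and STAT (TTCCNNGAA) matches were in 4.57% and 3.50% of members, and in 3.76% and 3.60% of all sites. Around the summit nearest the centre of the site, in place of the strongest summit, AP-1 was in 43.9%, 29.9% and 32.7%, TEAD in 20.8%, 13.7% and 15.4%, and RUNX in 21.6%, 13.4% and 15.7%. Both strands were searched. A reverse TEAD match can share letters with a STAT match.

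The AP-1 difference was smaller among distal sites. Among sites over 1000 bp from a gene start, AP-1 matches were in 54.7% of 4701 members and 50.3% of 25124 other held sites. The TEAD difference there was 23.3% against 17.6%, and the RUNX difference 24.7% against 17.6%. ETS matches were in 3.55% and 3.84% and the CTCF core in 3.08% and 3.26%, near-equal shares. SP/KLF remained lower in members, with 5.83% and 10.6%. For distal sites with a CTRL fold enrichment of 7.54 to 11.4, AP-1 was in 54.9% of members and 45% of other held sites, TEAD in 23.5% and 17.3%, and RUNX in 24.8% and 16.9%. The members that PBS 24 h A did not detect held AP-1 in 49.6%, TEAD in 30.8% and RUNX in 27.8%. The 337 under the strictest rule held them in 49.6%, 31.2% and 30.9%. TEAD and RUNX matches were thus more frequent, and AP-1 matches less frequent, in the members with the fewest PBS peaks than in all members.

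The TEAD share followed the number of PBS libraries in distal held sites. It was 30.5%, 21.8%, 21%, 19.0%, 17.3%, 17.1% and 15.7% in sites detected in 0 to 6 PBS libraries. For HGF it was 26.4%, 26%, 21.7%, 18.9%, 18.2% and 17.9% in sites detected in 1 to 6 libraries. TGFB ran in the opposite direction, from 12.2% in sites of 0 TGFB libraries to 23% in those of 6. OSM and IFNG changed less, from 21.5% to 18.5% and from 19% to 17.7% between sites of 0 and of 6 libraries. Within the members, the library TGFB 48 h C detected 76.8% of those with a TEAD match and 62.5% of those without. This was the widest gap among the libraries outside the rule. TGFB 24 h A detected 96.9% and 93.5%, OSM 24 h A 95.6% and 95.9%, and IFNG 48 h A 72.2% and 71.4%. In HGF 48 h A the order was reversed, with 78.3% and 83.1%. PBS 24 h A detected 73.1% of members with and 82.0% without a match, but it helped to choose the members, so these values are a description. RUNX shares went from 28.8% to 15.4% over the PBS numbers and were 16.1% and 17.5% at the ends of the TGFB range. These are shares of sites, and the sites of a group share their libraries, so no test was made.

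**Figure D4:**
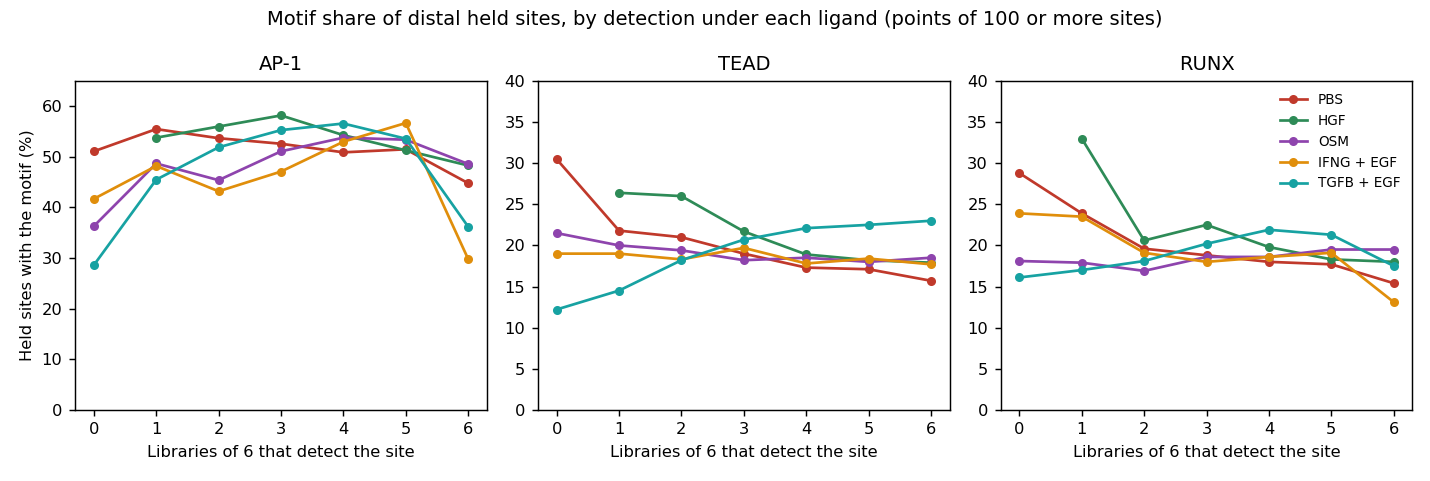
Percent of distal held sites with an AP-1, TEAD or RUNX match within 100 bp of the summit (vertical axes), by the number of libraries of 6 that detect the site (horizontal axes), with 1 line per group. The TEAD line goes from 30.5% to 15.7% for PBS and from 12.2% to 23% for TGFB. Points of fewer than 100 sites are not drawn, such as HGF at 0 libraries with 28 sites.

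Of 7 gene lists, the one of adhesion, matrix and protease genes had the most members. Within 50 kb of a gene start of that list, 21 of 122 held sites (17.2%) were members, beside 9.91% of the 27115 held sites within 50 kb of any gene start. Of its 21 genes 14 had one. The list of immediate early and feedback genes had 9 of 145 (6.21%), EGF and HGF receptors and ligands 6 of 55 (10.9%), cell cycle genes 4 of 80 (5.00%) and basal epithelial genes 4 of 52 (7.69%). Sterol and lipid synthesis genes had 3 of 43 (6.98%) and quiescence and FOXO target genes 6 of 56 (10.7%). These counts follow from the rule and carry no test.

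In the adhesion list, LAMA3, a chain of laminin-332, had 4 members of 14 held sites. The integrin genes ITGA2 and ITGA3 had 2 of 8 each, and ITGA6 had 2 of 7. PLAU, the urokinase protease, had 2 of 9. Genes with a single member included ITGA5, ITGB1, ITGB4, LAMB3, CD44, PLAUR, TNC and FN1. Of the 21 members of this list, 20 were detected in at least 3 HGF libraries, 15 in OSM, 17 in IFNG and 5 in TGFB, shares near those of all members. The ITGA2 site, in an intron at chr5:53019387-53019718, had a CTRL fold enrichment of 10.2 to 16.8. It was found in 4 HGF libraries (8.54 to 9.74) and in 5 IFNG libraries (6.59 to 9.56). The intergenic site 5619 bp from FN1, the gene of fibronectin, at chr2:215441402-215442231, was its only held site and was detected in 4 HGF, 4 OSM, 5 IFNG and 3 TGFB libraries. PLAUR, the urokinase receptor, had an intergenic site at 16693 bp with fold enrichments of 8.62 to 13.2 in CTRL and 3.54 in PBS 24 h A.

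Near the receptors and ligands, members lay by EGFR (2 of 13 held sites), MET (1 of 6), AREG (2 of 8), EREG (1 of 4) and HBEGF (1 of 5). A site near both AREG and EREG counts for both genes. ERBB2, ERBB3, TGFA, BTC and EPGN had 0. A member in an intron of EGFR is described here. Its fold enrichment was 14.0, 10.2, 7.11 and 8.14 in CTRL libraries A to D. EGF libraries detected it in 7 of 8, with a lowest, median and highest value of 4.07, 6.67 and 8.65, and PBS libraries in 0 of 6. It was detected in HGF 24 h A and B (7.49 and 3.60) and HGF 48 h A and B (5.02 and 5.15), in neither HGF library of letter C, in 2 OSM, 3 IFNG and 2 TGFB libraries. CTRL values reached above those of all other groups, and the lower of them overlapped the EGF range.

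AREG and EREG encode EGFR ligands that stand side by side on chromosome 4. The intergenic site at chr4:74410121-74410856 had CTRL fold enrichments of 9.78, 8.17, 12.4 and 7.58. Its EGF values were 4.60 to 10.1 with a median of 6.89, and PBS 24 h A gave 8.88. Both ranges overlapped. HGF detected it in 5 of 6 libraries (5.89 to 10.5) and OSM in 5 (4.28 to 9.96), TGFB in 3 and IFNG in 2.

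DUSP6, an ERK phosphatase that is induced by ERK and limits it, had 2 members of 6 held sites. The intergenic site at chr12:89370601-89371299, 18427 bp from the gene start, had CTRL fold enrichments of 7.10, 9.06, 7.87 and 6.26. All 8 EGF libraries detected it (4.92 to 7.75, median 6.41) and 0 PBS libraries. HGF detected it in 5 libraries, OSM in 4 and TGFB in 4, among them TGFB 24 h B (6.86), a library with 7540 peaks. IFNG detected it in 1 of 6, IFNG 24 h A, at 4.81. Other members of the immediate early and feedback list lay near FOSL1, FOSL2, JUN, JUNB, EGR3, IER2 and DUSP5, and 0 lay near FOS, EGR1, DUSP1, SPRY2 or SPRY4, which also encode immediate early factors or feedback inhibitors. The member near JUNB was found in all 6 HGF libraries and the one near FOSL1 in 2.

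In the remaining lists, the cell cycle members lay near CCND1, which encodes cyclin D1, CDC6, a licensing factor of DNA replication, MKI67, a marker of cycling cells, and RRM2, a subunit of ribonucleotide reductase. All 4 were detected in at least 3 HGF libraries, 1 in OSM, 2 in IFNG and 0 in TGFB. The basal epithelial members lay near TP63, a master factor of basal cells, the desmosomal cadherins DSC3 and DSG3, and SFN, the protein stratifin. The site nearest DSC3, in an exon of DSC2, had a CTRL fold enrichment of 8.92 to 19.4 and was detected in 5 HGF and 1 TGFB library. Sterol genes with a member were HMGCS1, an enzyme of cholesterol synthesis, and SREBF1 and SREBF2, the transcription factors of lipid synthesis. From the quiescence list, CDKN1A, an inhibitor of cyclin-dependent kinases, FOXO3, a factor restrained by growth signals, IRS2 and GADD45A, a stress gene, had members. IRS2, an adaptor of the insulin receptor, had 2 of 4 held sites, and the stronger one, at chr13:109743739-109744340, had a CTRL fold enrichment of 15.5 to 18.3 and 7.37 in PBS 24 h A. The lists with 6 or fewer members are too small for their shares to be compared.

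Strong members that met the strictest rule included sites with different patterns under the other ligands. The FGF5 site, 28492 bp from the gene of this fibroblast growth factor at chr4:80237854-80238557, had CTRL fold enrichments of 18.5, 16.3, 17.5 and 15.5. EGF values were 6.67 to 12.7 with a median of 10.1, all below those of CTRL. It was detected in 4 HGF (9.04 to 11.5), 5 OSM (6.13 to 19.2), 5 IFNG (5.32 to 12.3) and 3 TGFB libraries (5.07 to 10.9). OSM 24 h A, at 19.2, was above all 4 CTRL values.

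HMGA2 encodes a chromatin protein of growing and embryonic cells. The site in an intron of HMGA2, at chr12:65928113-65928458, had CTRL fold enrichments of 15.5, 15.6, 15 and 12.4 and EGF values of 8.42 to 13.7 (median 11.9). HGF 24 h A and B gave 17.7 and 10.5, and HGF 48 h A and B gave 15.7 and 15.5. The HGF range of the libraries that detected it reached above that of CTRL. OSM and IFNG detected it in 3 libraries each and TGFB in 1.

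S1PR1 is a receptor for sphingosine 1-phosphate. The intergenic site at chr1:101200425-101200861, 36311 bp from the gene, had CTRL fold enrichments of 18.8, 17, 13.2 and 13.1 and EGF values of 7.34 to 17.4. It was detected in 5 HGF, 4 OSM, 4 IFNG and 3 TGFB libraries. PPP3CA encodes the catalytic subunit of calcineurin. The site in an intron of PPP3CA, with CTRL values of 12.8 to 16.1, was detected in 4 OSM, 2 HGF and 2 TGFB libraries and in 0 IFNG libraries. The 12 strongest sites of this kind were detected in 2 to 5 HGF libraries each.

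**Figure D5:**
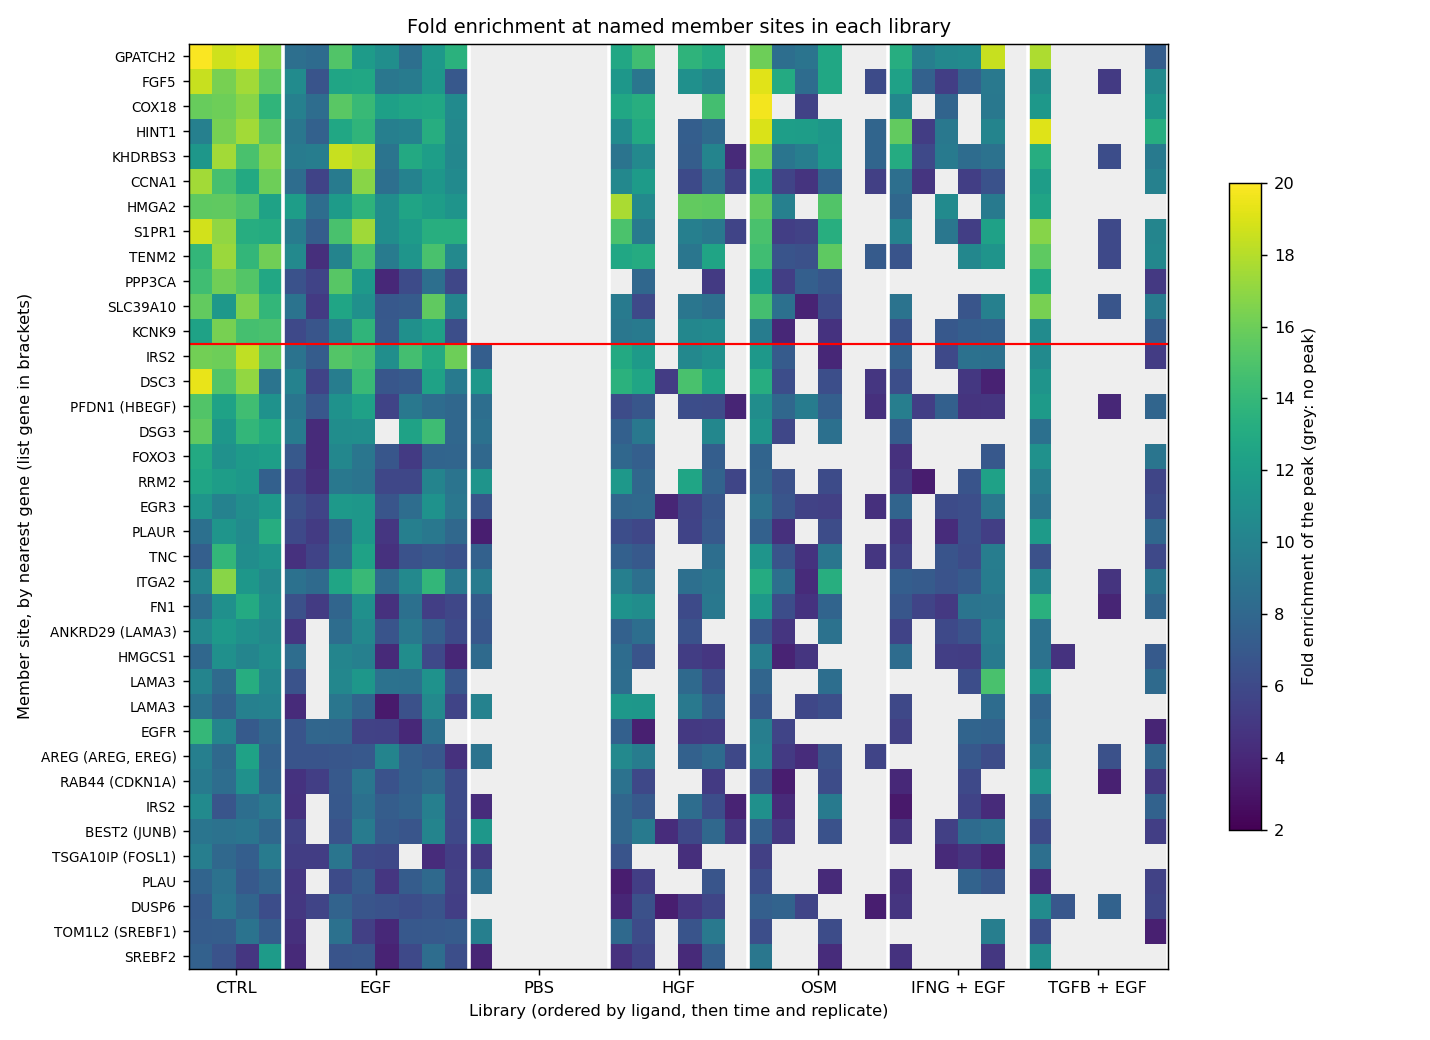
Fold enrichment (colour) at the 12 strongest members of the strictest rule, above the red line, and at 25 members near list genes, below it, in each of the 42 libraries (columns, by group); grey is no peak. Colours fill the CTRL and EGF columns and, in PBS, nearly only the column of PBS 24 h A, and the 8 libraries with under 30000 peaks are mostly grey.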

How the data were processed

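Chromatin accessibility was measured by ATAC-seq in 42 MCF10A libraries, which were grouped by the ligand and time in the labels. BMP2 libraries were not analysed here. Per the methods and the submitters' processing notes, the authors trimmed paired reads with Trimmomatic 0.36.5, aligned them to hg38 with Bowtie2 2.3.4.1, removed mitochondrial reads and duplicates (Picard), and called peaks in each library alone with MACS2 2.1.1.20160309.5, with no control library named. The deposited files list, for each peak, its position in bp, a ratio (fold enrichment at the summit over the local background), -log10 p and -log10 q values, and a score, which is 10 times the -log10 q. The deposited values hold no read counts, and the precision that depth gives was unknown. A fold enrichment is printed as deposited, for the strongest peak in a site. Peak calls and their number differ with depth and quality, so detection is compared beside the number of peaks.

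Peaks that overlapped by at least 1 bp were merged over the libraries. Sites were annotated by the strongest summit, the one with the highest -log10 p over all libraries, against protein-coding genes of GENCODE 44. Motifs were exact matches on either strand within 100 bp of that summit. The design had named the summit nearest the centre, and shares around it are given beside the main ones. Detection adjusted for peak number was compared with limma 3.58.1 (R 4.3.3) over 24 libraries in 8 groups, with 16 residual degrees of freedom, for sites detected in at least 2 of them. On simulated data for OSM minus HGF with 99842 sites, 77 of 200 changed sites (38.5%) and 0 unchanged sites were called. The changed sites were set to be detected in all 6 libraries of 1 of these ligands and in 0 of the other, the largest possible change. Most sites with even that change were thus missed. Other steps used python 3.11.15, pandas 2.3.3, numpy 2.4.6, scipy 1.17.1, pysam 0.24.0 and matplotlib 3.10.9. Alternatives changed the merging, the peak threshold, the number of peaks, the rule, the adjustment, the replicate block and the libraries. Which libraries failed the check of reads in peaks was copied by hand from the sample annotation published with the study.

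The members, gene lists, motifs and tests were chosen with earlier results of these data known. Sites were named by rule: the 12 members of the strictest rule and up to 12 promoter-proximal members with the highest CTRL fold enrichment, up to 25 members within 50 kb of list genes, up to 4 called members per contrast and direction, the extremes of detection, and 3 sites on each side of each limit. Genes with the most members were named by that count. A few items are not reported here.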

Additional observations from a re-analysis of the deposited data

Results flagged for a closer look

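In all, 71 groups of 4 to 8 libraries were checked for a highest or lowest value far from its neighbour by Dixon's test, at a level at which chance marks about 1 group in 20. The detection of members in CTRL, EGF and PBS libraries, which the rule used, was left out. It marked 1, the member near TOM1L2 and SREBF1, where the fold enrichment in CTRL 0 h C was 8.89, beside 7.22, 7.30 and 7.22 in the other CTRL libraries (a gap of 0.952 of the range).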

How the results depend on the processing

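Over 272 alternatives, 192 values stayed within the bounds set for them and 80 moved. These are counts and shares without a sign. The direction of the members' unadjusted differences from HGF turned for OSM, IFNG and TGFB with raw detection. The order of HGF and TGFB turned at equal peak number, 12.3% and 37.9%, where only 2 TGFB libraries remained. Over all peaks these 2 TGFB libraries already had a mean of 80.0%, above the HGF mean of 65.6%. The cause was not tested. The number of members, 4920, was 337 with 8 of 8 EGF and 0 of 6 PBS libraries, 13236 with at least 6 EGF and at most 2 PBS libraries, 475 with the 15000 strongest peaks of each library and, chosen after seeing the data, 1062 with the 30000 strongest and 7558 with the libraries that passed the quality check. Leaving out single libraries gave 4926 to 8563, the highest without PBS 24 h A. Under the same allowances the number cannot fall when libraries are left out. This range and the 7558 therefore do not show how stable the members are. The TGFB share was 80.0% when libraries with under 30000 peaks were left out, 85.8% for members chosen at 30000 peaks and 73.6% for those chosen with the libraries that passed. The HGF share of the same members among the 30000 strongest peaks was 12.3%. Leaving out single libraries moved the shares to between 59.9% and 75.9% in HGF, 39.6% and 58.2% in OSM, 43.1% and 60.1% in IFNG, and 18.6% and 37.2% in TGFB. Members called for OSM minus HGF (0) became 1 with raw detection, 9 with all 42 libraries, 17 at an adjusted p below 0.05 and 0 to 8 without single libraries. For IFNG minus HGF (12) they became 1, 39, 126 and 1 to 81, 7 without libraries under 30000 peaks and 6 in those that passed. For TGFB minus HGF (0) they became 1, 1, 1 and 0 to 3. For 48 h minus 24 h they were 0 throughout. The fit of all 42 libraries includes the 18 that chose the members, so its counts follow in part from the rule. No share of all sites is set beside these counts of called members, so they are not read as particular to the members. The letters of the replicates are shared between groups, but after the adjustment for peak number same-letter libraries did not deviate together: 84 pairs had correlations of -0.164 to 0.202 (median 0.00405), and 9 of 24 libraries correlated best with their own letter. In raw detection they ranged from -0.349 to 0.44 (median 0.0481), with 28 above 0.1. At 24 h letter A had the most peaks of A to C in PBS, HGF, OSM, IFNG and TGFB, and both HGF libraries of letter C were low. A replicate block gave 3 members for OSM, 11 for IFNG and 0 for the other contrasts. The promoter-proximal share of 4.45% was 3.27% at 500 bp and 8.35% at 2500 bp. The AP-1 share of 53.4% was 40.5% within 50 bp, 67.5% in whole sites and 43.9% around the central summit. For TEAD these values were 13.8%, 45.4% and 20.8%, and for RUNX 14.3%, 49.8% and 21.6%. Within 50 bp the other held sites held AP-1 in 26.6%, TEAD in 8.09% and RUNX in 7.97%. In whole sites they held them in 53.1%, 42.9% and 42.4%. The TEAD difference was thus small in whole sites, and the other held sites were also wider. Depth was unknown, and 8 libraries with few peaks limit what their absences show.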
